A study of Mus musculus with 12 samples.

Results

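Soluble IL-2 was compared with no IL-2 in mouse regulatory T cells (Tregs) that carried an empty retroviral vector. The comparison set 3 libraries of vector Tregs kept in IL-2 (EV+IL-2) against 3 libraries of vector Tregs washed free of it (EV no IL-2), which are 6 of the 12 libraries sequenced. It covered the 15043 of 55228 listed genes whose mean level was at least 1 TPM over all 12 libraries, TPM being a length-corrected share of all transcripts in a library. The values of single genes and the sums over markers are given as scaled TPM, which are the deposited TPM divided by 1 scaling factor for each library (1.017 to 1.076 in EV no IL-2 and 0.978 to 1.016 in EV+IL-2). The cells were CD4+ T cells from the lymph nodes of 16 NOD.Foxp3-GFP mice, a diabetes-prone strain in which green fluorescent protein marks Foxp3 expression. They were pooled, divided into 3 parts and sorted as Foxp3.GFP+CD25+ cells on separate machines, and the 3 parts were activated on their own and served as replicates. On day 2 after activation they received the empty vector (EV), an MSCV retrovirus carrying only a Thy1.1 reporter. On day 4 the EV no IL-2 cells were washed and cultured for 5 days without IL-2, while the EV+IL-2 cells stayed in medium with soluble mouse IL-2 for the same time. Thy1.1+ cells were sorted from both on day 9. Both groups had therefore been activated and had grown in IL-2 up to day 4, and the comparison reads its continued presence against 5 days of withdrawal. The replicates share 1 pool of mice, so the spread between them measures sorting, culture and library preparation and not differences between animals. The other 6 libraries, from Tregs cultured without IL-2 and carrying a construct that ties the orthogonal IL-2 3A10 or 1G12 to its receptor (3A10t and 1G12t), enter the same model fit. The 3A10t libraries are set against EV+IL-2 at the end.

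IL-2 is the growth and survival cytokine of Tregs, which make little or none of it and take it up from other T cells. It binds a receptor of CD25 (Il2ra), the beta chain (Il2rb) and the common gamma chain (Il2rg), and the kinases JAK1 and JAK3 on the receptor tails then phosphorylate STAT5. Phosphorylated STAT5 dimers bind DNA at sites of the form TTCNNNGAA and act on genes for the receptor itself, for feedback inhibitors of the CIS and SOCS family, and for survival. The receptor also feeds the PI3K and mTOR pathway that drives cell growth and entry into the cell cycle.

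Of the 15043 genes, 2001 (13.3%) were called different in limma at an adjusted p under 0.05. With IL-2, 1229 genes (8.17%) were higher and 772 (5.13%) were lower. These shares are the background for the counts of each gene list below. The increases were the larger changes. Of the genes called higher, 409 differed by more than 1 on the log2 scale and 116 by more than 2, while 123 and 12 of the genes called lower did. The 3 EV+IL-2 libraries lay entirely above or below the 3 EV no IL-2 libraries for 1226 of the genes called higher and 770 of those called lower. Such a gap makes a call likely, so these counts are not separate support for the calls. Over all 15043 genes, 19.6% lay entirely above and 20.0% entirely below. The median log2 difference of all genes tested was −0.01 after this scaling, which centres the typical gene near 0, and −0.07 on TPM as deposited. All differences are on the log2 scale of scaled TPM plus 1, which understates the change of genes with few TPM, and their standard errors (SE) are pooled over the 12 libraries. The count of genes called lower rested on the number of libraries. It was 487, 529 and 420 without replicates 1, 2 and 3 of EV no IL-2, and 397, 446 and 467 without replicates 1, 2 and 3 of EV+IL-2.

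**Figure D1:**
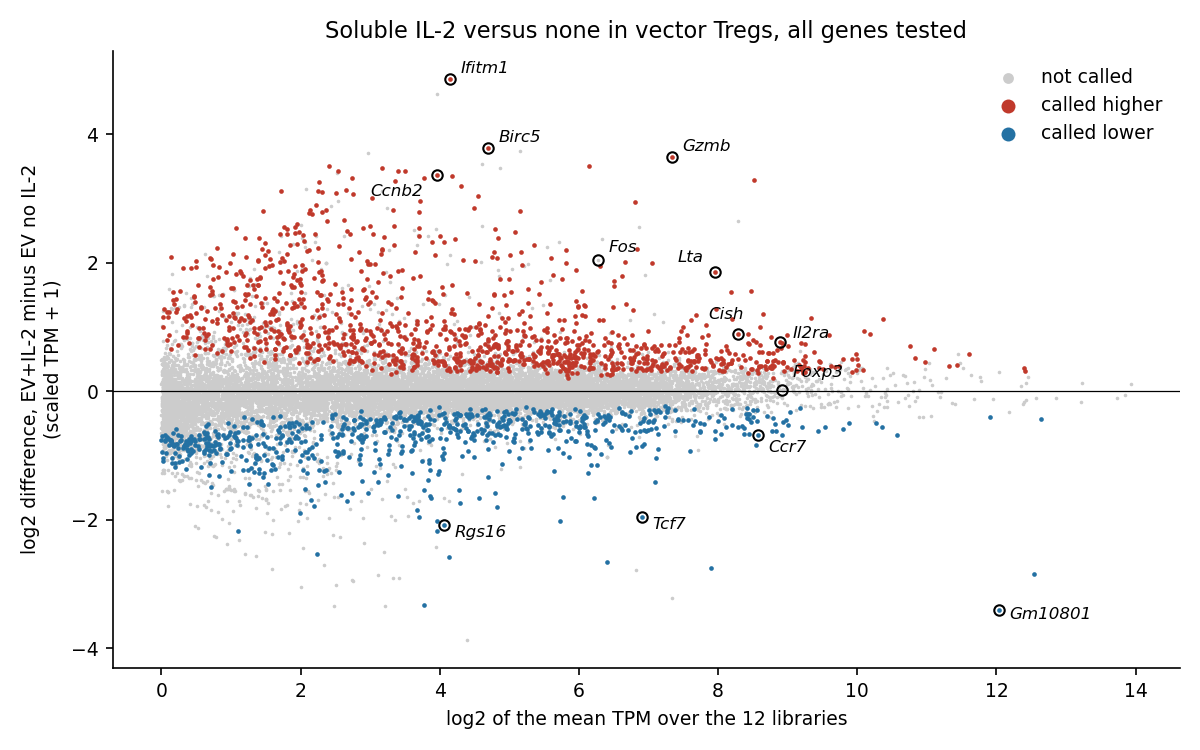
Log2 difference between EV+IL-2 and EV no IL-2 (vertical axis, scaled TPM plus 1) against the log2 of mean TPM over the 12 libraries (horizontal axis), 1 point for each of the 15043 genes tested. Red points are the 1229 genes called higher with IL-2, blue points the 772 called lower, and grey points were not called; red points reach up to 4.86 (Ifitm1), and Foxp3 lies near the zero line.

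Some values of whole libraries did not overlap between the groups. Between 30393 and 36239 genes were above 0 TPM in EV+IL-2 and between 37930 and 42150 in EV no IL-2. The 10 most abundant genes took 8.85% to 9.01% of all TPM in EV+IL-2 and 9.16% to 9.51% in EV no IL-2, and the scaling factors given above did not overlap either. The part of these differences in the results was not tested. Protein-coding genes took 86.7% to 87.8% of all TPM in EV+IL-2 and 85.8% to 87.2% in EV no IL-2. The Treg markers were high in both groups, with a summed level of 2222 to 2242 scaled TPM with IL-2 and 1840 to 1941 without it. Of the 6 markers, 1 was called higher, Il2ra, at 654 to 732 with IL-2 and 400 to 434 without it. Ctla4 and Cd4 were lower in every library with IL-2 than in any without it, but were not called. The markers of B cells, CD8 T cells, NK cells and stroma summed to no more than 17.9 scaled TPM per cell type in any of the 6 libraries. Of the 5 myeloid markers, 4 were below 1 scaled TPM in the 6 libraries, and the summed level of 506 to 555 was almost all Cst3, which many cells express. In bulk RNA, a change in the share of cells that use a gene and a change in the amount per cell cannot be told apart.

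With IL-2, 2 of the 3 chains of its own receptor were higher, and the genes of the signalling factors below it split by direction. Il2ra, the CD25 chain that gives the receptor its high affinity, lies at chr2:11642807-11693193 (GRCm38). It measured 402, 434 and 400.2 in replicates 1, 2 and 3 without IL-2 and 714, 732 and 654 scaled TPM in those with it. The groups did not overlap, and the log2 difference was 0.76 ± 0.11 (SE, adjusted p = 0.0012). Il2rb, the signalling beta chain, measured 289, 259 and 249.8 without IL-2 and 459.6, 472 and 428 scaled TPM with it, a log2 difference of 0.77 ± 0.09 (SE, adjusted p = 3.1e-04). Il2rg, the common gamma chain, overlapped between the groups at 1819, 2049 and 1886 and 2294, 2352 and 1885 scaled TPM and was not called, with an adjusted p of 0.37. Both STAT5 genes fell. Stat5b was at 123, 125 and 134 without IL-2 and 71.7, 81.8 and 74.9 scaled TPM with it (log2 difference −0.73 ± 0.10 (SE, adjusted p = 8.6e-04)), and Stat5a was at 54.1, 54.1 and 51.4 and 34.5, 32.8 and 33.6 scaled TPM (log2 difference −0.65 ± 0.13 (SE, adjusted p = 0.0079)). Jak1 was lower at an adjusted p of 0.015, a call lost on leaving out single libraries. Without replicate 2 or 3 of EV no IL-2, or replicate 1 or 3 of EV+IL-2, Jak1 had adjusted p values of 0.057, 0.065, 0.058 and 0.057. Stat3 did not differ beyond its spread (log2 difference 0.03 ± 0.10 (SE)), and Jak3 was not called at 0.37 (adjusted p = 0.083). Jak3 was called in 3 of the 18 alternative fits described at the end, among them the sort as a block in the 6 EV libraries alone (adjusted p = 0.033). Over the 14 receptor, JAK and STAT genes, 3 were called higher and 3 lower, and the median log2 difference was −0.02.

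Called genes of the cytokine signalling feedback list went in 1 direction. Besides feedback inhibitors, the list holds the kinases Pim1, Pim2 and Pim3, which are not inhibitors of the receptor. Of the 14 genes tested, 3 (21.4%) were called higher, none lower and 11 not. The median log2 difference was 0.23, and 13 of the 14 had a difference above 0. Cish encodes CIS, which binds the activated IL-2 receptor and limits STAT5 signalling. Cish measured 247, 241 and 234 in the 3 libraries without IL-2 and 461, 429.9 and 454 scaled TPM in the 3 with it. All 3 libraries with IL-2 were above all 3 without it, and the log2 difference was 0.89 ± 0.09 (SE, adjusted p = 9.3e-05). Socs2 was the most abundant member per length. It measured 619, 616 and 568 without IL-2 and 1116, 1128 and 1059 scaled TPM with it, a log2 difference of 0.87 ± 0.08 (SE, adjusted p = 3.3e-05). Socs1, which blocks JAK kinases downstream of IL-2 and interferons, had the largest difference, from 199, 192 and 155 to 453, 465 and 406 scaled TPM (log2 difference 1.28 ± 0.12 (SE, adjusted p = 6.0e-05)). Socs3 was higher in each of the 3 libraries with IL-2, at 103, 108 and 87.6 and 149, 168 and 142 scaled TPM. It did not pass the test (adjusted p = 0.093). Socs3 was called in 3 of the 18 alternative fits, among them the sort as a block in the 6 EV libraries alone (adjusted p = 0.018). Each of these genes was still measured in every library after 5 days without IL-2.

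The promoter of Cish is shown because it holds the STAT5 letters in tandem at the transcription start. It is set beside the promoter of Lta, an IL-2-responsive TNF-family ligand that rose, and that of Il7r, which fell and holds the same letters. The sequences are from RefSeq (GRCm38.p6), 5′ to 3′ on the strand of the gene, with the TTCNNNGAA matches in capitals. Cish is on the plus strand at chr9:107296629-107296688, Lta on the minus strand at chr17:35205329-35205533 and Il7r on the minus strand at chr15:9529980-9530048.
Cish: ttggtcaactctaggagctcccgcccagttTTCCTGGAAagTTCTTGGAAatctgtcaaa
Lta: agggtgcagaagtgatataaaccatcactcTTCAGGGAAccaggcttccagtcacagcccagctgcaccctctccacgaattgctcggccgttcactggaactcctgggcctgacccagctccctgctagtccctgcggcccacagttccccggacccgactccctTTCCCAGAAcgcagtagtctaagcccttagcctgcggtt
Il7r: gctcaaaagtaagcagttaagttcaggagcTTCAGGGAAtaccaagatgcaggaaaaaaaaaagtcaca
In Cish the matches begin at bases 1 and 12 counted from the annotated start, in Lta at −152 and −16, and in Il7r at −142. A promoter window, here 250 bases before to 50 after the start, was at hand for 9334 of the tested genes. TTCNNNGAA, which reads the same on both strands, was found in a window of 8.36% of them, of 10.4% of the genes called higher and of 8.70% of those called lower. It was also found in 40.5% of the interferon response list, where it can overlap other motifs. A match is a description of the letters in the window and not of binding.

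Mitosis was the only one of the 31 gene lists in which every tested member was called. All 46 of the mitosis genes were called higher, with a median log2 difference of 2.22 and a range from 0.71 to 3.79. All 46 had every library with IL-2 above every library without it, and all 46 were still called with any 1 of the 6 EV libraries left out. Among all genes tested, 8.17% were called higher and 19.6% had every library with IL-2 above every library without it. Birc5, or survivin, guards chromosome attachment and is made in mitosis. Birc5 measured 7.48, 3.85 and 4.04 in the 3 libraries without IL-2 and 91.9, 82.5 and 69.3 scaled TPM in the 3 with it. Every library with IL-2 was far above every library without it, and the log2 difference was 3.79 ± 0.30 (SE, adjusted p = 1.7e-05). Cdk1, the kinase that starts mitosis, and its partners Ccna2 and Ccnb2 moved with it. Cdk1 measured 6.17, 6.97 and 3.31 without IL-2 and 62.9, 59.6 and 47.7 scaled TPM with it. Ccna2 rose from 2.84, 2.47 and 1.44 to 38, 33.4 and 29.5 scaled TPM, a log2 difference of 3.43 ± 0.20 (SE, adjusted p = 3.5e-06). Ccnb2 rose from 4.64, 3.77 and 2.61 to 56.3, 50.1 and 35.6 scaled TPM, and Ube2c, the ubiquitin carrier that destroys the cyclins, from 6.15, 4.78 and 2.9 to 67.1, 54.6 and 43.8 scaled TPM. Mki67, the proliferation marker Ki-67, was at 1.25, 1.2 and 1.28 without IL-2 and at 11.4, 9.66 and 8.6 scaled TPM with it (log2 difference 2.28 ± 0.17 (SE, adjusted p = 1.2e-05)). These 6 genes were detected at no more than 7.48 scaled TPM without IL-2, and the list also held smaller changes down to its lowest of 0.71.

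DNA replication genes followed with smaller changes. Of 44 tested, 34 were called higher and none lower, and the median log2 difference was 0.86. The loading factor Cdc6 and the enzymes that make deoxynucleotides led the list. Cdc6 rose from 0.806, 1.06 and 0.91 to 17.1, 15.3 and 14.3 scaled TPM, a log2 difference of 3.1 ± 0.15 (SE, adjusted p = 1.4e-06). Rrm2, the regulated subunit of ribonucleotide reductase, rose from 15.1, 12.3 and 12.7 to 110.3, 107 and 81.3 scaled TPM, Tk1 (thymidine kinase) from 7.86, 6.6 and 8.24 to 47.5, 45.9 and 36.9 scaled TPM and Tyms (thymidylate synthase) from 24.1, 29.9 and 23.8 to 93.4, 88.6 and 77 scaled TPM. The subunits of the MCM helicase were not uniform. Mcm5, Mcm3 and Mcm2 had log2 differences of 1.75, 0.93 and 0.90 and were called, Mcm7 was called at 0.39, and Mcm6 and Mcm4 had 0.39 and 0.24 and were not. In the list of G1 control, 11 of 22 genes were called higher and 2 lower, with a median of 0.37. Ccne2, the cyclin that opens S phase, rose from 3.51, 3.11 and 3.06 to 18.1, 18.3 and 13.7 scaled TPM, and Cdk6 rose from 32.3, 36.7 and 41.6 to 83.1, 103 and 112 scaled TPM. The inhibitors of the list went in opposite directions. Cdkn1a, the p21 inhibitor, rose from 64.6, 67.3 and 62.5 to 258, 291 and 236 scaled TPM (log2 difference 1.99 ± 0.23 (SE, adjusted p = 2.2e-04)). Cdkn1b, the p27 inhibitor that holds resting T cells in G1, was lower at 43.7, 40.4 and 39.8 and 26.9, 28.4 and 31 scaled TPM, with an adjusted p of 0.026. That call was lost without replicate 1, 2 or 3 of EV no IL-2 or replicate 1 or 2 of EV+IL-2, at adjusted p values of 0.089, 0.064, 0.065, 0.10 and 0.081. The other gene of the list called lower, the p57 inhibitor Cdkn1c, had a log2 difference of −0.67 ± 0.16 (SE, adjusted p = 0.019). Its call was lost without replicate 1 or 2 of EV no IL-2, without replicate 2 or 3 of EV+IL-2, in the 6 EV libraries alone and with the sort as a block in those 6, at adjusted p values of 0.078, 0.063, 0.083, 0.05, 0.053 and 0.079. The count called lower was therefore 0 without replicate 1 or 2 of EV no IL-2 or replicate 2 of EV+IL-2.

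Promoters of mitosis genes and replication genes are shown because they carry different letters. The cell cycle homology region (CHR), TTTGAA, is the element through which mitosis genes are held off in resting cells. E2F factors, which switch on the genes of S phase, bind sites such as TTTCCCGC and TTTGGCGC. Matches on either strand are in capitals, so that the reverse complement appears in the line where the match is on the other strand. Cdk1 (minus strand, chr10:69352892-69353013), Ccnb2 (minus strand, chr9:70421525-70421751) and Ube2c (plus strand, chr2:164769870-164769935) are shown for TTTGAA. Cdc6 (plus strand, chr11:98907983-98908050) and Mcm5 (plus strand, chr8:75109330-75109397) are shown for the E2F letters.
Cdk1: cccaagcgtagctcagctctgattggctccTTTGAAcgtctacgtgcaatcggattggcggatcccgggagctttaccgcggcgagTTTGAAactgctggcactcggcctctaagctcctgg
Ccnb2: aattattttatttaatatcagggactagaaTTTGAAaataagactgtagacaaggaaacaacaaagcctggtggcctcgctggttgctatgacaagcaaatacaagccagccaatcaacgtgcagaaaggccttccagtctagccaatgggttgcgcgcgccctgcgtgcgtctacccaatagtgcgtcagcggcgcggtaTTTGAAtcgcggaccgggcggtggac
Ube2c: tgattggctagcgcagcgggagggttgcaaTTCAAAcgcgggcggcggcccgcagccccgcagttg
Cdc6: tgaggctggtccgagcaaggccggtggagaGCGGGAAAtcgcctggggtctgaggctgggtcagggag
Mcm5: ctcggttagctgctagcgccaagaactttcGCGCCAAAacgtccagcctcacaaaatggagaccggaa
The match nearest the start begins at base −15 in Cdk1, 5 in Ccnb2 and −29 in Ube2c, and the E2F matches begin at −138 in Cdc6 and −149 in Mcm5. TTTGAA was found in the window of 29 of the 39 mitosis genes with a promoter (74.4%, Wilson 95% interval 58.9% to 85.4%) and of 14.5% of all tested genes. In the DNA replication list its share was 11.4%. The E2F letters showed the reverse. They were found in 11 of 35 replication genes (31.4%, interval 18.6% to 48.0%), in 0 of 39 mitosis genes and in 3.51% of all genes. Of the genes called higher, 20.1% held TTTGAA, against 15.0% of those called lower. These shares describe which genes are in the lists and were not tested against the change with IL-2.

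**Figure D2:**
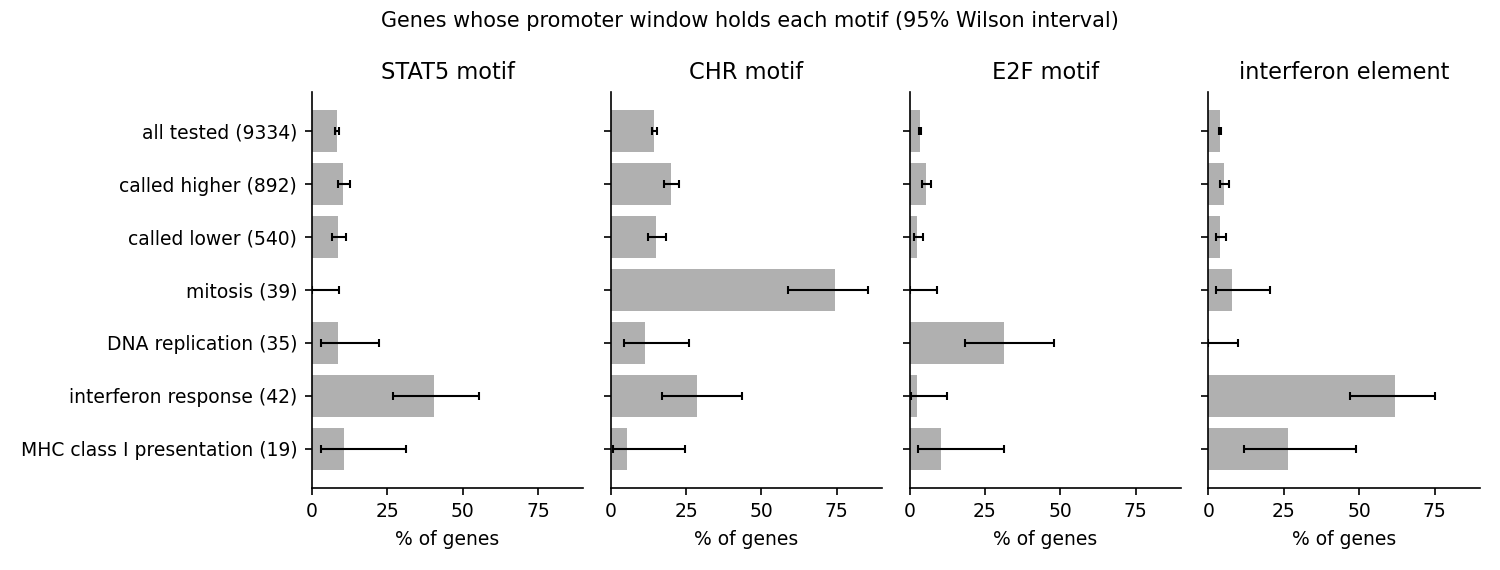
Share of genes, in percent, whose promoter window of 250 bases before to 50 after the start holds the STAT5, CHR or E2F letters or the interferon element (4 panels), with the number of genes in brackets and 95% Wilson intervals. The CHR bar of the mitosis list stands at 74.4%, the E2F bar of the DNA replication list at 31.4% and the interferon element bar of the interferon response list at 61.9%, while the bars of the genes called higher stand at 20.1%, 5.49% and 5.27% for these 3, against 14.5%, 3.51% and 3.73% of all genes.

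Foxp3, the factor that defines the lineage and lies on the X chromosome at chrX:7573644-7595245, was not called. Foxp3 measured 501, 489.8 and 492 in the 3 libraries without IL-2 and 509.8, 496 and 501 scaled TPM in the 3 with it. The log2 difference was 0.02 with a 95% interval of −0.15 to 0.20, and its sign turned with the scaling (−0.04 on TPM as deposited, −0.15 after quantile normalization). Of 14 identity genes tested, 3 were called higher and none lower, with a median log2 difference of 0.13. The 3 were Il2ra, Lrrc32 and Tnfrsf18. In 12 of the 14 the groups did not overlap, 7 with every EV+IL-2 library above and 5 with every one below. Among all genes tested, 19.6% lay entirely above and 20.0% entirely below. With the 6 EV libraries alone, 5 identity genes were called higher and 4 lower. Lrrc32, or GARP, which displays latent TGF-beta on the Treg surface, rose from 87.1, 100.1 and 97.6 to 176, 184 and 163 scaled TPM (log2 difference 0.87 ± 0.16 (SE, adjusted p = 0.0041)). Tnfrsf18, or GITR, was among the most abundant receptors per length and rose from 1792, 1795 and 1693 to 2763, 2994 and 2602 scaled TPM (log2 difference 0.66 ± 0.13 (SE, adjusted p = 0.0055)). Ikzf2, or Helios, was at 131, 145 and 162 without IL-2 and 197, 193 and 294 scaled TPM with it. It was not called (adjusted p = 0.13), but was called with the sort as a block (adjusted p = 0.023).

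The mediators of suppression went in both directions. Gzmb, the protease granzyme B, was the largest change of the 13 tested. Gzmb measured 37.2, 41 and 43.1 in the 3 libraries without IL-2 and 509, 552 and 488 scaled TPM in the 3 with it. Its 3 values with IL-2 were each more than 10 times those without it, and the log2 difference was 3.64 ± 0.67 (SE, adjusted p = 0.0045). The SE is pooled over all 12 libraries and is wider than the spread of these 6. Fgl2, a secreted suppressor, rose from 9.16, 11.7 and 11.5 to 25.1, 25.5 and 21.4 scaled TPM (log2 difference 1.09 ± 0.14 (SE, adjusted p = 4.2e-04)). Lag3, Cd83 and Tigit fell, with log2 differences of −1.53 ± 0.30 (SE), −1.09 ± 0.17 (SE) and −0.71 ± 0.13 (SE). The call of Tigit was lost with the sort as a block in the 6 EV libraries alone (adjusted p = 0.057). Ctla4, the inhibitory receptor that Tregs need for suppression, was not called, at 185, 199.9 and 209 and 176, 166 and 169.5 scaled TPM (adjusted p = 0.27). Its groups did not overlap, and it was called lower in 2 of the 18 alternative fits. Il10 was at 12, 8.81 and 10.4 without IL-2 and 3.19, 4.73 and 4.67 scaled TPM with it, with no overlap, but did not pass the test, whose SE is pooled over the 12 libraries (log2 difference −1.14 ± 0.54 (SE, adjusted p = 0.21)). The ectoenzymes CD39 (Entpd1) and CD73 (Nt5e) differed by 0.07 ± 0.12 (SE) and −0.10 ± 0.23 (SE) and were not called, nor was Ebi3 at 0.17 ± 0.11 (SE).

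Inhibitory receptors as a list were lower or not called. Of 11 tested, 5 were called lower and none higher, and the median was −0.37, against 5.13% of all genes called lower. Besides Lag3 and Tigit, the 5 were Pdcd1, Cd200 and Cd101. Pdcd1 encodes PD-1. Pdcd1 measured 58.4, 53.3 and 57.7 in the 3 libraries without IL-2 and 32, 28.1 and 25.7 scaled TPM in the 3 with it. The log2 difference was −0.96 ± 0.09 (SE, adjusted p = 5.1e-05), and Cd200 fell from 82, 82.9 and 72.8 to 37.7, 36.9 and 30.7 scaled TPM. TNF receptors and costimulatory receptors split evenly, with 4 of 15 called higher and 4 lower. Tnfrsf9, the receptor 4-1BB, rose from 90.4, 84.2 and 90.0 to 188, 171 and 152 scaled TPM (log2 difference 0.94 ± 0.16 (SE, adjusted p = 0.0026)), while Cd27 fell from 452, 460.1 and 459.7 to 289, 297 and 303 scaled TPM and Cd28, the main costimulatory receptor, from 140.0, 151 and 168 to 101, 102 and 104 scaled TPM.

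**Figure D3:**
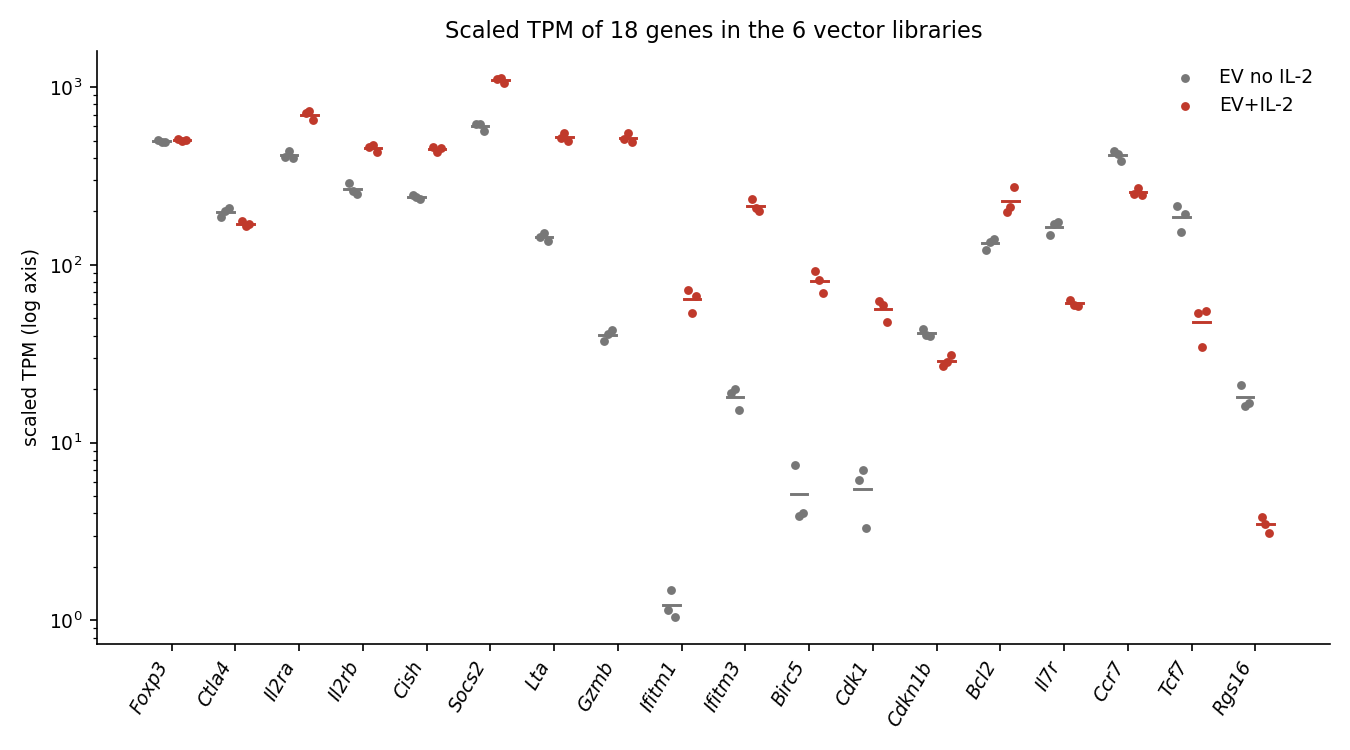
Scaled TPM (log axis) of 18 genes in each of the 3 EV no IL-2 libraries (grey) and 3 EV+IL-2 libraries (red), with bars at the group means. Foxp3 overlaps between the groups, Gzmb, Ifitm1, Birc5 and Cdk1 are at least 6 times higher with IL-2 in every library, and Tcf7, Il7r and Rgs16 are lower in every library.

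Of the 10 genes of cytotoxic granules tested, Gzmb included, 6 were called higher and none lower, with a median of 0.62. Gzmc, a further granzyme, rose from 6.07, 6.25 and 5.75 to 40.4, 36.9 and 32.4 scaled TPM (log2 difference 2.41 ± 0.18 (SE, adjusted p = 1.2e-05)), and Nkg7, a granule membrane protein, from 21.4, 14 and 15.7 to 62.7, 53.9 and 59.8 scaled TPM. Prf1, the pore-forming perforin, was low and not called, at 5.97, 7.11 and 5.17 and 7.23, 7.5 and 7.39 scaled TPM. Serpinb6b and Serpinb9, which inhibit granule proteases inside the cell that makes them, were called higher with log2 differences of 0.99 and 0.86. Of the markers of the cells that use these granules most, the CD8 chain Cd8a was at 0.175 to 0.534 scaled TPM over the 6 libraries and Cd8b1 at 3.44 to 5.23, and both overlapped between the groups. The 4 NK cell markers summed to 1.55 to 2.51 without IL-2 and 0.174 to 0.581 with it. Their part in these results was not tested.

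Among cytokines and TNF ligands, 5 of the 15 tested were called higher and 1 lower. Lta, or lymphotoxin alpha, was the most abundant of the 5 with IL-2. Lta measured 144, 150.2 and 136 in the 3 libraries without IL-2 and 517, 552 and 496 scaled TPM in the 3 with it. The groups were well apart and the log2 difference was 1.86 ± 0.12 (SE, adjusted p = 6.7e-06). Tnf, its neighbour on chromosome 17, rose from 38, 33.5 and 29.4 to 118, 109 and 118 scaled TPM (log2 difference 1.75 ± 0.25 (SE, adjusted p = 8.9e-04)). Lif and Osm, both cytokines of the IL-6 family, rose from 0.894, 0.789 and 0.957 to 10.6, 9.87 and 9.7 scaled TPM and from 61.9, 57.8 and 54.2 to 196, 183 and 166 scaled TPM. Penk, the enkephalin precursor that Tregs express, was the 1 gene of the list called lower, from 15.5, 16.4 and 11.8 to 4.08, 7.73 and 4.75 scaled TPM.

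In the interferon response list the largest increases were those of a small family. Of 59 tested, 21 (35.6%) were called higher, 2 (3.39%) lower and 36 not, and the median log2 difference was 0.48. The family is Ifitm1, Ifitm2 and Ifitm3, which encode membrane proteins that block the entry of viruses and lie in 1 cluster on chromosome 7 between 140954837 and 141010770. Ifitm1 had the largest increase of all named genes. Ifitm1 measured 1.15, 1.48 and 1.05 in the 3 libraries without IL-2 and 71.9, 53.3 and 67.1 scaled TPM in the 3 with it. It went from no more than 1.48 to at least 53.3 scaled TPM, a log2 difference of 4.86 ± 0.33 (SE, adjusted p = 7.9e-06). Ifitm3 rose from 19, 20.1 and 15.2 to 235, 208 and 201 scaled TPM (log2 difference 3.51 ± 0.23 (SE, adjusted p = 6.7e-06)). Ifitm2 was the most abundant of the 3 per length and rose from 109.6, 117 and 94.8 to 1045, 1084 and 1025 scaled TPM (log2 difference 3.29 ± 0.33 (SE, adjusted p = 8.9e-05)). Other members were far smaller or uneven among the libraries. Rtp4 was at 8.39, 11.6 and 8.56 without IL-2 and 50.4, 27.8 and 21.2 scaled TPM with it (log2 difference 1.62 ± 0.32 (SE, adjusted p = 0.0068)), a call lost with the sort as a block in the 6 EV libraries alone (adjusted p = 0.073). The classic interferon targets Ifit1 and Isg15 did not pass the test. Ifit1 was at 12, 2.24 and 2.25 scaled TPM with IL-2, so replicate 1 stood above the other two, and Isg15 showed the same order at 17.2, 7.16 and 6.26 scaled TPM. The guanylate-binding proteins were split as well, with Gbp4 and Gbp6 called at 1.55 and 1.34 and Gbp2 and Gbp5 at −0.08 and −0.01. The count called higher fell to 13 of 59 without replicate 3 of EV no IL-2 and to 13 without replicate 1 of EV+IL-2. The count called lower was 1 without any 1 of the 6 EV libraries.

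The promoters of Ifitm3 and Ifitm2 are shown because both hold the interferon-stimulated response element near the start. It was searched on either strand and is shown in capitals. The promoter of Ifitm1 is not reported here. Both lie on the minus strand, at chr7:141010715-141010772 and chr7:140955968-140956037 (RefSeq, GRCm38.p6).
Ifitm3: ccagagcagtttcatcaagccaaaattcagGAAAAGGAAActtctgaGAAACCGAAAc
Ifitm2: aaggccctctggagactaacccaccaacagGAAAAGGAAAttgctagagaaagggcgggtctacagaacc
The matches begin at bases 3 and 20 in Ifitm3 and at −46 in Ifitm2. The element was in the window of 26 of 42 genes of the interferon list (61.9%, Wilson 95% interval 46.8% to 75.0%), of 3.73% of all genes and of 5.27% of the genes called higher.

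Genes that display peptides on MHC class I were called in 1 direction. All 22 tested had a log2 difference above 0, 15 (68.2%) were called higher and none lower, and the median was 0.47. The transporter Tap2, which brings peptides into the endoplasmic reticulum, led at 174, 193 and 177 without IL-2 and 369, 402 and 342 scaled TPM with it (log2 difference 1.03 ± 0.08 (SE, adjusted p = 1.6e-05)). Psmb8, a subunit of the immunoproteasome that cuts those peptides, rose from 837, 935 and 742 to 1666, 1706 and 1441 scaled TPM (log2 difference 0.94 ± 0.16 (SE, adjusted p = 0.0026)). Nlrc5, the factor that switches on class I genes, rose from 32.8, 44 and 33.6 to 69.1, 67.7 and 78.2 scaled TPM. The class I heavy chain H2-K1 had a log2 difference of 0.58, and their light chain B2m one of 0.32. H2-Q7 and its relatives are near-identical copies between which reads may be split, so their single values are uncertain. The count was 9 without replicate 3 of EV no IL-2 and 9 without replicate 2 of EV+IL-2.

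The genes lower with IL-2 included markers of resting and recirculating T cells. Of 26 quiescence genes tested, 8 were called lower and none higher, with a median of −0.36 and 22 of 26 differences below 0. Tcf7, which encodes the TCF1 factor of naive and memory-like T cells, fell most. Tcf7 measured 214, 152 and 192 in the 3 libraries without IL-2 and 53.6, 34.5 and 55 scaled TPM in the 3 with it. The highest library with IL-2 was below the lowest without it, and the log2 difference was −1.96 ± 0.23 (SE, adjusted p = 2.2e-04). Il7r, the receptor for the other main survival cytokine of T cells, fell from 148, 169 and 173 to 63.5, 59.7 and 58.6 scaled TPM (log2 difference −1.41 ± 0.16 (SE, adjusted p = 2.0e-04)). Ccr7, which guides T cells into lymph nodes, fell from 439, 417 and 382 to 251, 269.5 and 248 scaled TPM (log2 difference −0.68 ± 0.11 (SE, adjusted p = 0.0016)). Tsc22d3, a target of FOXO factors and glucocorticoids, fell by 0.59 on the log2 scale. Klf2, Foxo1 and Bach2 had log2 differences of −0.26, −0.67 and −0.34 and were not called. The count for the list was 5 without replicate 2 or replicate 3 of EV no IL-2.

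Chemokine receptors were the list with the lowest median. The list also holds S1pr1, S1pr4 and Gpr183, which are not chemokine receptors. Ccr7 and S1pr1 are also in the quiescence list. Of 13 tested, 8 were called lower and none higher, and the median log2 difference was −0.56. Cxcr4, the receptor for the retention signal CXCL12, measured 31.9, 31.9 and 30.9 without IL-2 and 9.88, 8.61 and 9.37 scaled TPM with it (log2 difference −1.67 ± 0.18 (SE, adjusted p = 1.3e-04)). Cxcr6 fell from 15.8, 16 and 15.5 to 4.29, 4.12 and 4.74 scaled TPM and Ccr6, a receptor of cells homing to gut and inflamed tissue, from 66.2, 67 and 91.8 to 28.9, 28.9 and 32.5 scaled TPM. Cxcr5 and Cxcr3, which mark follicular and Th1-like Tregs, had log2 differences of −1.53 and −1.01 and were called. Ccr8, Ccr4 and Ccr2 were not called, at −0.08, 0.19 and 0.46. Of the adhesion genes, Itga4 (integrin alpha 4) fell from 82.8, 81 and 97.9 to 33.7, 37.7 and 45.4 scaled TPM, and Itgb3 (integrin beta 3) rose from 24.3, 30.1 and 34.3 to 57.9, 57.5 and 57.5 scaled TPM. Of the 22 genes of the T cell receptor complex, 2 (9.09%) were called lower and none higher, with a median of −0.10. Of all genes, 5.13% were called lower. The count lower was 6 on TPM as deposited, 7 after quantile normalization, 5 with the 6 EV libraries alone and 8 with library weights, and 1 without replicate 1 or 2 of EV no IL-2 or any 1 of the EV+IL-2 replicates. Cd5 was lower by 0.36 on the log2 scale (adjusted p = 0.0062).

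**Figure D4:**
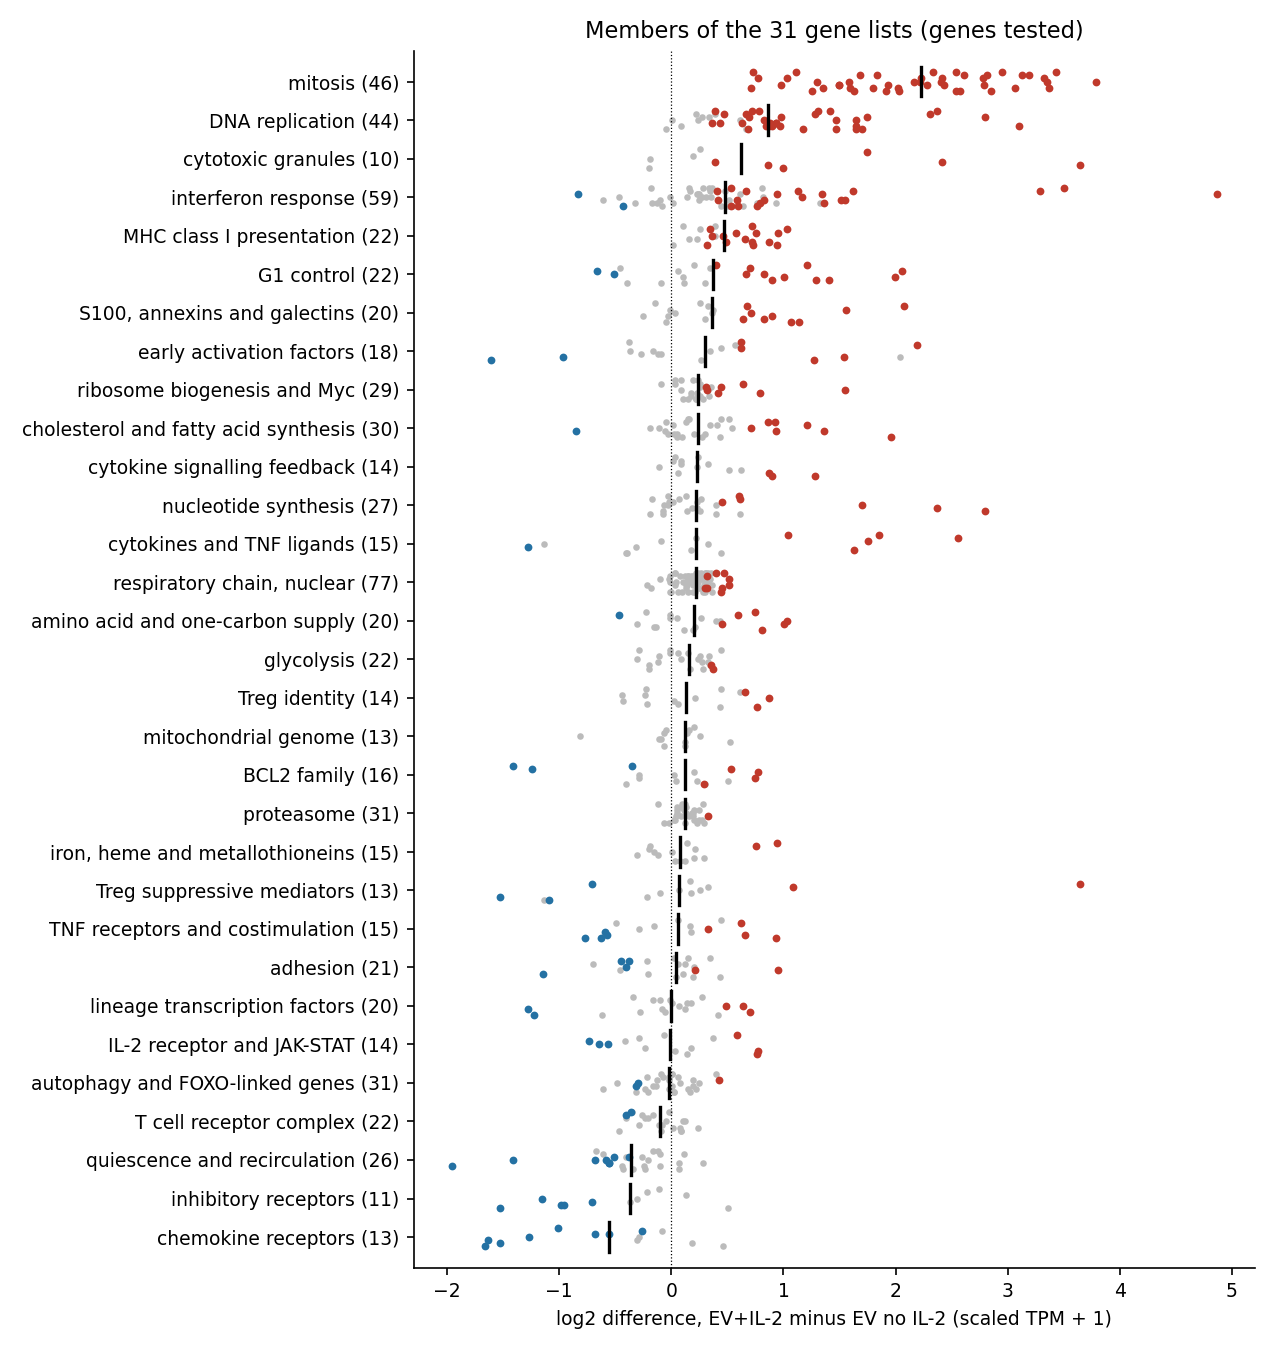
Log2 difference between EV+IL-2 and EV no IL-2 (horizontal axis) of each tested member of the 31 gene lists, with the number tested in brackets and a black bar at the list's median. Red and blue points were called higher and lower, and grey points were not called; all 46 mitosis genes are red, and the lowest 3 medians are those of quiescence, inhibitory receptors and chemokine receptors.

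Lineage factors changed singly. Of 20 tested, 3 (15.0%) were called higher and 2 (10.0%) lower, against 8.17% and 5.13% of all genes, with a median of −0.002. Batf, an AP-1 factor of effector Tregs, rose from 113, 110.0 and 104 to 177, 179 and 176 scaled TPM (log2 difference 0.70 ± 0.11 (SE, adjusted p = 0.0021)), and Runx3 from 25.5, 26.1 and 25.5 to 37.3, 34.5 and 37.7 scaled TPM. Bcl6, the factor of follicular cells, fell from 5.81, 5.8 and 4.94 to 1.66, 1.64 and 1.75 scaled TPM (log2 difference −1.28 ± 0.13 (SE, adjusted p = 1.1e-04)). Gata3 and Prdm1 had log2 differences of 0.14 ± 0.11 (SE) and −0.10 ± 0.16 (SE) and were not called. Among the early activation factors, changes went in both directions. Dusp6, a phosphatase induced by ERK, rose from 23.9, 24.6 and 26.4 to 124, 117 and 112 scaled TPM (log2 difference 2.19 ± 0.23 (SE, adjusted p = 1.3e-04)), and Dusp1 from 164, 181 and 171 to 542, 538 and 437 scaled TPM. Egr2 fell from 4.44, 4.79 and 6.05 to 1.03, 1.22 and 0.738 scaled TPM (log2 difference −1.61 ± 0.17 (SE, adjusted p = 1.1e-04)). Nr4a1 (Nur77) was lower, at 11.8, 10.3 and 13.8 and 5.33, 6.23 and 5.29 scaled TPM (adjusted p = 0.01), a call lost without replicate 3 of EV no IL-2 (adjusted p = 0.054). Fos was at 13.8, 20.0 and 23.7 without IL-2 and 102, 81.6 and 61.6 scaled TPM with it, with no overlap. It did not pass the test (log2 difference 2.04 ± 0.80 (SE, adjusted p = 0.13)), but was called higher in 2 of the 18 alternative fits. Of the 18 genes, 5 were called higher and 2 lower, and without replicate 3 of EV no IL-2 or replicate 1 or 2 of EV+IL-2 the count higher was 3.

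Survival genes of the BCL2 family were mixed, with 4 of 16 called higher and 3 lower. Without replicate 1 of EV+IL-2 the count higher was 2, and without any 1 of the 6 libraries the count lower was 2. Bcl2 itself rose. Bcl2 measured 121, 135 and 139.8 in the 3 libraries without IL-2 and 199, 211 and 274 scaled TPM in the 3 with it. The log2 difference was 0.77 ± 0.15 (SE, adjusted p = 0.0066). Bax, its death-promoting partner, rose by a similar amount, from 483, 482 and 434 to 749, 848 and 748 scaled TPM (log2 difference 0.74 ± 0.14 (SE, adjusted p = 0.0063)). Bcl2a1b and Bcl2a1d, near-identical copies of a survival gene of which single values are uncertain, fell by 1.25 and 1.41 on the log2 scale. Bcl2l11 (BIM) had a log2 difference of 0.23 ± 0.18 (SE) and was not called. Mcl1 was at 148, 56.1 and 162 scaled TPM with IL-2, with replicate 2 apart from the other two, and was not called either.

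The S100, annexin and galectin genes encode calcium-binding, membrane-repair and sugar-binding proteins that many effector T cells make. Of 20 tested, 9 (45.0%) were called higher and none lower, 15 had a difference above 0, with a median of 0.36. S100a6 rose from 242, 227 and 218 to 657, 670.5 and 700.3 scaled TPM (log2 difference 1.56 ± 0.12 (SE, adjusted p = 1.5e-05)), and Lgals1, or galectin-1, from 517, 461 and 424 to 1014, 1041 and 1023 scaled TPM (log2 difference 1.14 ± 0.12 (SE, adjusted p = 1.1e-04)). The count was 6 without replicate 3 of EV no IL-2 and 6 without replicate 2 of EV+IL-2.

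The metabolic lists had smaller medians than that of mitosis. Myc, the factor that drives cell growth, rose from 334, 318 and 286 to 545, 566 and 516 scaled TPM (log2 difference 0.79 ± 0.15 (SE, adjusted p = 0.0049)), and 28 of the 29 ribosome biogenesis and Myc genes had a difference above 0. Yet 7 of them were called, and 3, 3, 3 and 2 without replicates 1 and 3 of EV no IL-2 and replicates 1 and 2 of EV+IL-2. The count was 14 with the 6 EV libraries alone, 11 with the sort as a block in those 6 and 18 with library weights. Under these 3 settings 1725, 1360 and 2200 of all genes were called higher. Of 30 genes of cholesterol and fatty acid synthesis, 7 were called higher and 1 lower. Elovl6, which lengthens fatty acids, rose from 18.6, 20.2 and 22.5 to 83.4, 80.6 and 82.7 scaled TPM (log2 difference 1.96 ± 0.11 (SE, adjusted p = 3.5e-06)). Acss2, which makes acetyl-CoA from acetate, fell from 11.7, 13.3 and 14 to 6.73, 7.04 and 6.41 scaled TPM. Tfrc, the transferrin receptor that supplies iron to dividing cells, rose from 22.5, 24.1 and 23.7 to 46.9, 44.6 and 46.2 scaled TPM (log2 difference 0.94 ± 0.13 (SE, adjusted p = 9.1e-04)). Of the serine and one-carbon genes, Shmt1 rose from 9.43, 11 and 9.1 to 21.1, 19.7 and 22.5 scaled TPM and Phgdh from 57.2, 53.6 and 50.2 to 99.6, 88.1 and 84.5 scaled TPM. Of the 77 nuclear genes of the respiratory chain, 69 had a difference above 0, the median was 0.22 and 9 (11.7%) were called higher, against 8.17% of all genes. That count was 4, 2, 4, 2 and 3 without replicates 2 and 3 of EV no IL-2 and replicates 1, 2 and 3 of EV+IL-2, 17 on TPM as deposited and 35 with library weights. None of the 13 genes of the mitochondrial genome was called. Glycolysis had 2 of 22 genes called higher (9.09%), near the 8.17% of all genes. Both calls were lost without replicate 2 or 3 of EV no IL-2 or any 1 of the EV+IL-2 replicates. The count higher was 6 with the 6 EV libraries alone, 8 with the sort as a block in those 6 and 9 with library weights. The count lower was 0, 1 and 2 under the same 3 settings.

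Several of the largest changes lay outside the lists and were chosen after their values were seen. Pdlim4, which binds actin, rose from 6.88, 7.09 and 5.84 to 67.7, 59.6 and 57.8 scaled TPM (log2 difference 3.04 ± 0.26 (SE, adjusted p = 2.9e-05)). Pcx, or pyruvate carboxylase, which feeds the citric acid cycle, rose from 12.8, 12.9 and 12.5 to 74.8, 84.9 and 75 scaled TPM (log2 difference 2.53 ± 0.13 (SE, adjusted p = 1.5e-06)). Tmem176a and Tmem176b, a pair of membrane proteins encoded side by side, rose by 2.32 and 2.38 on the log2 scale. Rflnb, a filamin-binding protein, had the largest decrease of the named genes other than predicted Gm genes. Rflnb measured 25.1, 24 and 24.1 in the 3 libraries without IL-2 and 3.15, 3.54 and 3.11 scaled TPM in the 3 with it. The log2 difference was −2.58 ± 0.11 (SE, adjusted p = 8.0e-07). Rgs16 and Rgs2, which damp signals of G protein-coupled receptors such as the chemokine receptors, fell by 2.08 and 1.65. Tent5c, Matk, Fgfr1 and Itga7 fell by 1.80, 1.59, 1.58 and 1.39 on that scale.

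The 12 largest increases also held an alpha globin gene, Hba-a1, and the 12 largest decreases held repeat-like predicted genes. Hba-a1 and its near-identical copy Hba-a2, which was below the 12, had log2 differences of 3.51 ± 0.25 (SE) and 3.12 ± 0.25 (SE). Hba-a1 was at 0.904, 0.439 and 0.641 without IL-2 and 23.8, 16.7 and 14.2 scaled TPM with it. The erythroid factor Gata1 was higher too, from 66.9, 68.4 and 52.6 to 161, 165 and 143 scaled TPM. The erythroid marker list of 8 genes summed to 54.6 to 71.2 scaled TPM without IL-2 and 168 to 200.1 with it, 3 of its members were called higher, and its defining members Klf1 and Alas2 were below 1 scaled TPM in the 6 libraries. The 8 predicted genes Gm10801, Gm10800, Gm21738, Gm10717, Gm10718, Gm11168, Gm10719 and Gm10722 made up most of the 12 largest decreases. They are annotated as protein-coding but resemble each other and repeated DNA, so that reads may be shared between them. Gm10801, at chr2:98662237-98664083, was at 1377, 1253 and 1835 without IL-2 and 90.0, 95.5 and 298 scaled TPM with it. Predicted genes of this kind summed to 3881 to 5269 scaled TPM in EV no IL-2, to 407 to 983 in EV+IL-2 and to 20255 to 44366 in 3A10t.

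Against the Tregs that carry the tethered 3A10 and were cultured without IL-2, 1962 genes were higher in EV+IL-2 (13%) and 1551 lower (10.3%). This comparison uses the same EV+IL-2 libraries, so it is not independent of the one above. All 46 mitosis genes and 34 of the 44 replication genes were also higher than in 3A10t, with medians of 1.84 and 0.75. The list medians of mitosis against the EV no IL-2 mean were 2.42, 2.28 and 1.97 in the 3 EV+IL-2 libraries and 0.27, 0.44 and 0.35 in the 3 3A10t libraries. Ifitm1 differed from 3A10t by 4.1, Gzmb by 2.96 and Lta by 1.5 on the log2 scale, each called. Cish and Socs2 were also higher than in 3A10t, by 0.63 and 0.43 (adjusted p = 9.4e-04 and 0.0032). Of the respiratory chain genes, 1 was higher and 1 lower than in 3A10t, with a median of −0.03. The 3A10t libraries were uneven for this list. Its medians against the EV no IL-2 mean were 0.08, 0.54 and 0.17 in replicates 1, 2 and 3 of 3A10t. In those of EV+IL-2 they were 0.18, 0.27 and 0.20. The scaling factors of the 3A10t replicates were 1.002, 0.854 and 0.962. Foxp3 was higher in EV+IL-2 than in 3A10t by 0.31 (adjusted p = 0.019). It measured 509.8, 496 and 501 scaled TPM in EV+IL-2 and 463, 369 and 391 in 3A10t. How this Foxp3 call and the respiratory chain median change with the scaling or without single libraries is not reported here. Thy1, whose reads can come from the cells and from the Thy1.1 reporter of the vector, overlapped between the EV groups at 3475, 3191 and 3193 and 3266, 3477 and 3111 scaled TPM and higher in EV+IL-2 than in 3A10t by 3.84. The count of genes higher than in 3A10t was 1111 without replicate 1 of EV+IL-2 and 3009 without replicate 1 of 3A10t, and the count lower was 792 without replicate 1 of EV+IL-2.

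**Figure D5:**
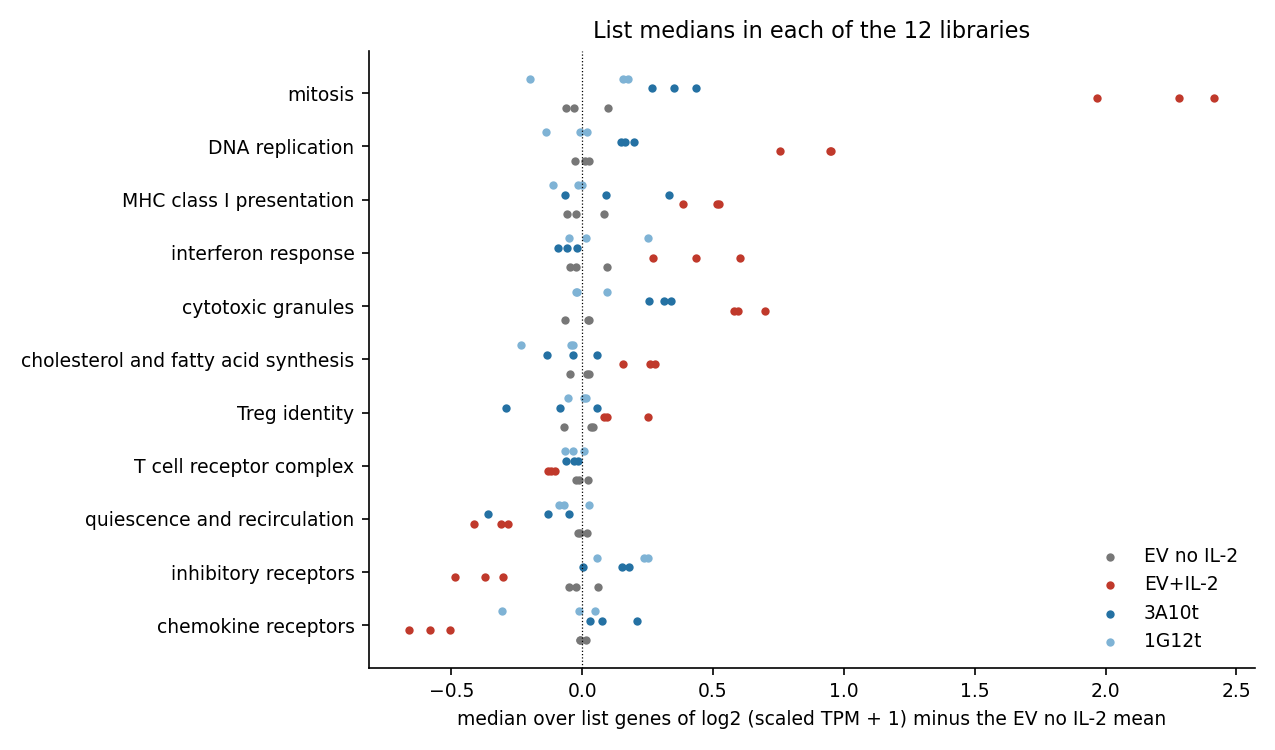
Median over the genes of 11 lists of the log2 level (scaled TPM plus 1) minus the EV no IL-2 mean (horizontal axis), 1 point for each of the 12 libraries, coloured by group. The 3 EV+IL-2 libraries stand apart on the right for mitosis, at 2.42, 2.28 and 1.97, and on the left for the chemokine receptors, at −0.51, −0.58 and −0.66.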

How the data were processed

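RNA-seq libraries from 12 Treg cultures (4 groups of 3) were analysed from 1 table of TPM values deposited by the authors, in which every library sums to about 1000000. TPM values are corrected for transcript length and hold no read depth, so the depth is unknown and no count model or counting interval was used. Per the labels, polyadenylated RNA was amplified to cDNA with an oligo dT primer. The submitters' processing notes name cutadapt 1.18, STAR 2.5.3, RSEM 1.3.0 and DESeq2 1.26, with mouse GRCm38 (mm10) as genome. Amplification before sequencing and the estimated assignment of shared reads by RSEM can change the TPM of low genes and of near-identical copies.

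Here TPM were divided by median-of-ratios factors (0.854 to 1.09) to give the scaled TPM printed for single genes, 1 was added, and log2 values were fitted in limma 3.58.1 (R 4.3.3) with trend, the 4 groups as coefficients and Benjamini-Hochberg adjustment over 15043 genes. A gene with an adjusted p under 0.05 was called. No column of other samples was present, as 0 were left out. Symbols were matched to GENCODE M21 (53569 of 55228). Motifs were searched on both strands of RefSeq promoter windows of 9334 genes. The fit was tested on simulated data for EV+IL-2 against EV no IL-2 with 14443 genes. Of genes changed by 1 on the log2 scale, 43 of 50 raised and 44 of 50 lowered were recovered. Of those changed by 2, 48 of 50 raised and 50 of 50 lowered were recovered. Among the genes left unchanged, 8 were called. Changes were planted only in the more abundant genes, with independent noise and no effect of the sort. The simulation therefore does not cover genes with few TPM.

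Genes were named by rule: the 12 largest changes each way among called protein-coding genes of mean TPM at least 5 without overlap, up to 4 called members of each list each way, a fixed set from Foxp3 to Thy1, and cell type markers. Genes named as not called, and those outside the lists, were chosen after their values were seen. Some members of the lists are counted but not reported singly here. The members and the gene lists were chosen with earlier results of these data known, so counts over a list are descriptions and were not tested as sets. The labels tie the replicate number to 1 sort, so the numbers pair the samples, although the deviations of the same-numbered EV samples correlated at −0.079 to 0.068. Over all 4 groups, same-numbered samples correlated at a mean of 0.041 (−0.105 to 0.155). Samples of different number and group correlated at a mean of −0.020 (−0.128 to 0.133). The fit with the sort as a block was an alternative, as were 3 other scalings, pseudocounts of 0.1 and 5 and other filters on low TPM. Further alternatives were the 6 EV libraries alone, no trend, library weights, and leaving out each of the 6 EV libraries in turn. For the comparison with 3A10t, each EV+IL-2 and 3A10t library was left out in turn. No 1G12t library was left out.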

Additional observations from a re-analysis of the deposited data

How the results depend on the processing

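Counts of called genes depended on how the spread was estimated more than on the scaling. With the 6 EV libraries alone 3209 genes were called, of which 1484 were lower, and with library weights from arrayWeights 4168 were called, 2200 higher and 1968 lower. Leaving out each of the 6 EV libraries in turn gave 1243 to 1486 genes, with 842 to 999 higher and 397 to 529 lower. Against 3A10t, leaving out each EV+IL-2 or 3A10t library in turn gave 1903 to 5145 genes, 1111 to 3009 higher and 792 to 2136 lower. The fit with the replicate block called 1245 genes higher and 729 lower. It ended the calls of Ier2, Cd6, Gar1 and Wipi2 (adjusted p = 0.056, 0.061, 0.056 and 0.066), made Ikzf2 a call, and changed no other named call. The replicate block on the 6 EV libraries alone ended 14 named calls, among them Tigit, Rtp4 and Cdkn1c (adjusted p = 0.057, 0.073 and 0.079), and made Socs3 and Jak3 calls (0.018 and 0.033). Among 192 named genes, 170 were called, 134 of them under each of the 6 EV libraries left out and 129 under all 18 alternatives. The 3A10t and 1G12t libraries also set the SE, and how these calls change without 1 of them was not examined. No called gene changed sign. The sign changed for genes near 0 that were not called. Foxp3 was at −0.038 on TPM as deposited and −0.15 after quantile normalization. Stat3 was at −0.028 and −0.051 under the same settings, and ranged from −0.012 (without replicate 2 of EV+IL-2) to 0.077 over the single libraries left out. Thy1 was at 0.013 with library weights and ranged from −0.043 to 0.040 without single libraries. Prdm1 ranged from −0.23 to 0.0085 (without replicate 2 of EV no IL-2), and Mcl1 from −0.68 to 0.076 (without replicate 2 of EV+IL-2). The cause of these changes was not tested. At 3 libraries a group, small changes such as those of metabolic lists are at the limit of the test, and TPM do not show the depth behind a low value.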
